A study of Mus musculus with 72 samples.

Results

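Wdfy1, Crb1, Cyfip2, Entpd4 and Ide are genes listed as differing between C57BL/6 mouse substrains. Their symbols were matched to 5 of the 55401 genes of the count table and to 37 of the 119414 transcripts of the transcript table. The count table came from bulk messenger RNA sequencing of dorsal (DH) and ventral (VH) hippocampus from male mice. Mice carried the label C57BL/6NJ (6NJ) or C57BL/6J (6J), with no engineered allele named for either, and no age is given. They received shock with a cue (fear conditioning), received the cue alone, or stayed in the home cage. A time of 30 minutes afterwards is given for both cue conditions and none for the home cage. With 2 regions, 2 strain labels and 3 conditions there were 12 groups of 6 libraries, so 36 libraries labelled 6NJ were set against 36 labelled 6J. Each of the 36 codes, 18 per strain label, gave a DH and a VH library. The 12 code numbers each belonged to 1 strain label and 1 condition, so that anything shared by the codes of a number cannot be told apart from its label and condition. No label states that the libraries within a group are from different mice, and p-values therefore measure only the spread between these libraries.

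The members act in different places of the cell. Wdfy1 encodes a WD-repeat and FYVE-domain protein that binds a phosphoinositide of early endosomes and links toll-like receptors to the adaptor TRIF. Entpd4 encodes a nucleotide-hydrolysing enzyme of the Golgi and lysosome membranes. Crb1 encodes a transmembrane protein of the Crumbs complex, which sets apical polarity in epithelia and is best known from the retina. Cyfip2 encodes a subunit of the WAVE complex, which drives branching of actin filaments and shapes dendritic spines, and it binds the fragile X protein. Ide encodes insulin-degrading enzyme, a zinc peptidase that also cleaves amyloid beta. As background, C57BL/6N lines are known for a mutation in Crb1 and for a serine to phenylalanine change in Cyfip2, and C57BL/6J is the strain of the reference genome GRCm38.

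Depth and the labels were checked first. Library totals ranged from 30330382 to 56258370 gene counts, with 5.60% to 9.44% in mitochondrial genes. The labels were checked on Nnt and Gabra2, because the C57BL/6J line is known to lack part of Nnt and to express little Gabra2. Both genes went against the labels. Nnt averaged 20.3 ± 1.15 CPM (counts scaled to the library total) under 6NJ and 37.996 ± 1.86 CPM under 6J (SD, n = 36 each). Gabra2 averaged 120.2 ± 15.8 CPM under 6NJ and 267 ± 35.6 CPM under 6J, and in both genes each library labelled 6NJ was below each one labelled 6J. Every direction given here is therefore one between libraries labelled 6NJ and libraries labelled 6J, and not between strains identified by their genotype. Markers of hippocampal neurons summed to 2501 to 3159 CPM in DH libraries labelled 6NJ and to 2545 to 3140 CPM in those labelled 6J. In VH the sums were 2624 to 3099 CPM under 6NJ and 2569 to 3106 CPM under 6J. The list includes the general neuronal genes Snap25 and Rbfox3, so its sum cannot tell hippocampus from other neuronal tissue, or DH from VH. The ventral pole markers Trhr and Dcn summed to 6.52 to 58.4 CPM in DH and 36.7 to 120 CPM in VH under 6NJ. Under 6J they summed to 7.02 to 27.9 CPM in DH and 34.8 to 121 CPM in VH, so the regions overlapped under 6NJ alone. Their medians were 11.8 CPM in DH and 72.9 CPM in VH under 6NJ, and 12.1 and 88.8 CPM under 6J. Of the 7 hippocampal neuron markers, 3 passed the test between labels in DH and 2 in VH (edgeR), all higher under 6NJ. Across all genes tested, 14.7% passed this test in DH and 9.92% in VH, beside which the marker counts here stand. C1ql2, a dentate gyrus marker, was higher by 42.5% in DH and 37.9% in VH, the neuronal marker Rbfox3 by 11.2% and 9.34%, and Prox1 by 17.1% in DH. In DH 1 of 3 astrocyte, 1 of 2 endothelial and 1 of 3 thalamic markers passed. In VH 1 of 3 astrocyte markers passed and 0 of the endothelial and thalamic ones. The astrocyte markers went both ways under 6NJ: Gfap was higher by 11.2% in VH and Aldh1l1 fell by 7.02% in DH (edgeR). Aqp4, the other astrocyte marker, passed in neither region. In DH the endothelial marker Flt1 fell by 8.22% and the thalamic marker Rora fell by 10.9% under 6NJ (edgeR), while the endothelial marker Cldn5 did not pass. No microglial or neocortical marker passed in either region. Markers of the choroid plexus varied within both labels, from 39.7 to 3964 CPM under 6NJ and from 45.8 to 8840 CPM under 6J in DH, and none of its 5 markers passed the test between labels in either region. All 3 oligodendrocyte markers passed it in DH and 1 of 3 in VH, all higher under 6NJ, with median sums of 4755 CPM under 6NJ and 4188 CPM under 6J in DH and of 2576 CPM under 6NJ and 2047 CPM under 6J in VH. In bulk tissue, fewer cells of a type and less RNA per cell cannot be told apart. The part of these markers in the member results was not tested.

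Wdfy1 and Entpd4 hold stretches that occur more than once in the genome, so these are shown before the values. In the coding transcripts of Wdfy1, of 4551 bases, they are only exons 4, 5 and 6, of 55, 151 and 113 bases. Wdfy1 (ENSMUSG00000073643) is on the minus strand of chromosome 1 (GRCm38), at 79702262 to 79776143. In the GENCODE vM21 annotation, the coding exons 4, 5 and 6 occur in 2 places 7442 bases apart with identical letters. The upstream copies are at 79729656 to 79729710, 79726566 to 79726716 and 79724645 to 79724757. The downstream copies are at 79722214 to 79722268, 79719124 to 79719274 and 79717203 to 79717315. They have 55, 151 and 113 bases, written here from 5′ to 3′ on the coding strand and in lower case throughout because the 2 copies differ at no base.
Wdfy1 exon 4: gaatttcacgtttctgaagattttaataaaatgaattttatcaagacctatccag
Wdfy1 exon 5: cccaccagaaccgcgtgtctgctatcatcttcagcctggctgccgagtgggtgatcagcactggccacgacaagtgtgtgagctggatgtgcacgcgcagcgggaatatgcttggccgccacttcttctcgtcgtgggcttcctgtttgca
Wdfy1 exon 6: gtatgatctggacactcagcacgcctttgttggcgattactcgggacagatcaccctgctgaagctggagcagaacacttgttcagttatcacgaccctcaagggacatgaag

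Entpd4 (ENSMUSG00000095463) lies on chromosome 14 from 69337174 to 69367270 on the plus strand. A second gene model, Entpd4b (ENSMUSG00000022066), lies 218250 bases further on, from 69555424 to 69585520 on the same strand. All 8281 of the 8281 different 75-base windows in the transcripts of Entpd4 also occur in those of Entpd4b, so a read of 75 bases cannot be assigned to either. The other 4 members shared no window with another gene. The first 75 coding bases show this identity, with the start codon in capitals. In Entpd4-206 they lie at 69347587 to 69347594 and 69349073 to 69349139, and in Entpd4b-204 at 69565837 to 69565844 and 69567323 to 69567389.
Entpd4-206: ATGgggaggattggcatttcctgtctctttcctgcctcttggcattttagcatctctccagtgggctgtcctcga
Entpd4b-204: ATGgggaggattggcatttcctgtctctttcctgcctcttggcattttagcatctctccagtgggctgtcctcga

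Over the mean of the 3 conditions, 3 members had large differences between labels in both regions. Wdfy1 was lower under 6NJ, Crb1 and the Entpd4 transcripts were higher, and Cyfip2 did not pass the test. Ide was higher in the mean, with 7 codes labelled 6NJ far above the other 11. Of the 5 members, 4 passed the low-count filter of the gene table in each region, and Entpd4 did not. Of these 4, Wdfy1, Crb1 and Ide passed the test at an adjusted p of 0.05 (edgeR quasi-likelihood test) in DH and in VH. Across all genes tested, 14.7% passed in DH (8.06% higher and 6.64% lower under 6NJ) and 9.92% in VH (4.87% higher and 5.06% lower). The median log2 fold change over all genes tested, 6NJ over 6J, was -0.01 in DH and -0.00 in VH.

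**Figure D1:**
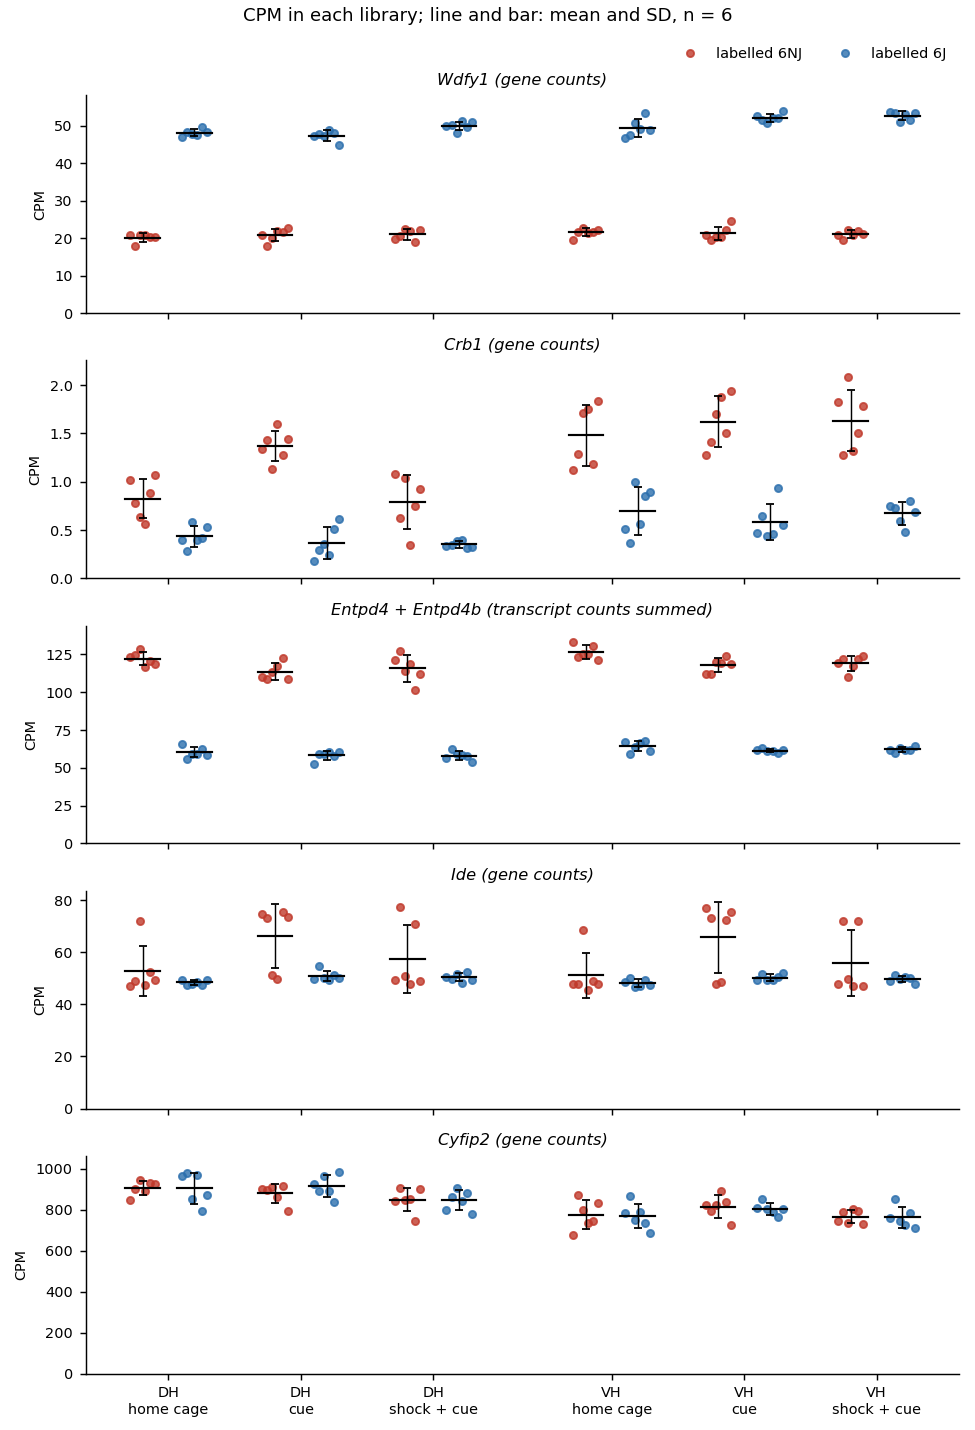
Level in every library (CPM; linear axis from 0) of the members by region, condition and strain label, with libraries labelled 6NJ left of those labelled 6J; each point is a library and bars show the group mean and SD (n = 6). Wdfy1 sits at 17.8 to 24.5 CPM under 6NJ and at 44.7 to 53.8 CPM under 6J, the Entpd4 sum shows the opposite order, and Ide has libraries above 60 CPM under 6NJ and none under 6J.

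Wdfy1 had 17.8, 20.8 and 22.8 CPM (lowest, median and highest library) in DH under 6NJ, against 44.7, 48.2 and 51.2 CPM under 6J. In VH it had 19.4, 21.3 and 24.5 CPM under 6NJ, against 46.6, 51.8 and 53.8 CPM under 6J. The groups did not overlap: each of the 36 libraries labelled 6NJ was below the lowest one labelled 6J. Wdfy1 fell to 0.427 of its 6J level in DH, with a log2 fold change of -1.23 ± 0.0264 (SE; 95% interval -1.28 to -1.18; edgeR adjusted p = 2.47e-30). In VH it fell to 0.415 of that level, at -1.27 ± 0.0250 on the log2 scale (edgeR adjusted p = 8.49e-32). These values rest on 575 to 1064 counts per library under 6NJ and on 1550 to 2948 under 6J.

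The size of the Wdfy1 difference varied little with condition. In DH it was -1.25 ± 0.0458 in the home cage, -1.18 ± 0.0457 after the cue and -1.25 ± 0.0455 after shock and cue. In VH it was -1.19 ± 0.0434, -1.29 ± 0.0433 and -1.32 ± 0.0434 in the same order. All 6 passed the test, with edgeR adjusted p of at most 3.13e-21. All 6 group means under 6NJ lay below all 6 under 6J. In DH, groups labelled 6NJ averaged 20.2 ± 1.19 CPM in the home cage, 20.8 ± 1.70 CPM after the cue and 21.0 ± 1.46 CPM after shock and cue, against 48.1 ± 0.896, 47.3 ± 1.42 and 49.9 ± 1.17 CPM under 6J (SD, n = 6 each). In VH the 6NJ means were 21.6 ± 1.11, 21.3 ± 1.79 and 21.1 ± 0.955 CPM in that order of conditions, against 49.4 ± 2.44, 52.1 ± 1.04 and 52.7 ± 1.17 CPM under 6J. Within a label and region, the condition means differed by far less than the labels did.

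Of the 14 Wdfy1 transcripts in the transcript table, 5 passed the low-count filter in each region and 4 of them were lower under 6NJ. In the background, 2.90% of the transcripts tested passed in DH (0.931% lower) and 2.18% in VH (0.934% lower). These 4, named Wdfy1-204 and upwards, are coding transcripts of 4551 bases with identical letters, so reads cannot be told apart between them, the table gives all 4 the same fold change, and they are not separate evidence. Their sum averaged 20.8 ± 1.30 CPM under 6NJ and 47.2 ± 1.63 CPM under 6J in DH (SD, n = 18 each). In VH it averaged 21.2 ± 1.07 CPM under 6NJ and 49.9 ± 1.94 CPM under 6J. Each had a log2 fold change of -1.18 ± 0.0297 in DH (edgeR adjusted p = 8.61e-25) and of -1.23 ± 0.0268 in VH (edgeR adjusted p = 1.05e-26). The fifth, Wdfy1-214, is annotated as a target of nonsense-mediated decay and gave 0.05 ± 0.627 in DH and 1.75 ± 0.655 in VH (edgeR adjusted p = 0.990 and 0.196).

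Another set of Wdfy1 transcripts ran the other way. Wdfy1-209, Wdfy1-210 and Wdfy1-211 are identical non-coding transcripts of 555 bases, made of 388 bases upstream of exon 4, exon 4 itself and the first 112 bases of exon 5, all inside the segment that occurs in 2 places. Their sum was 0.115, 0.434 and 0.914 CPM (lowest, median and highest library) in DH under 6NJ, against 0, 0.0280 and 0.0829 CPM under 6J. In VH it was 0.285, 0.464 and 0.608 CPM under 6NJ, against 0, 0.0130 and 0.0962 CPM under 6J. In each region every library labelled 6NJ lay above every library labelled 6J, and 8 of 18 libraries labelled 6J in DH and 9 of 18 in VH were at 0. Summed over libraries, 342 estimated counts under 6NJ stood against 15.4 under 6J in DH, and 313 against 18.8 in VH. Each of the 3 transcripts was below the low-count filter, so this difference was not tested.

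Of 9 genes in a list of the Wdfy1 paralog Wdfy2 and the toll-like receptor signalling chain, 0 were higher and 1 was lower in DH, and none passed in VH, beside 14.7% and 9.92% of all genes (median log2 fold changes -0.01 and -0.03). The gene that passed was Wdfy2 itself, at 40.8 ± 2.20 CPM under 6NJ and 43.4 ± 2.60 CPM under 6J in DH (-0.09 ± 0.0284, edgeR adjusted p = 0.0298). Mrpl44, a mitochondrial ribosomal protein gene on the opposite strand, overlaps the start of Wdfy1 and gave 0.05 in DH and 0.06 in VH (edgeR adjusted p = 0.252 and 0.243). The strand setting of the counting is not given in the sources used here, so reads in that overlap cannot be assigned with certainty. Scg2, a granin gene beside it, was higher under 6NJ in both regions, by 0.19 ± 0.0335 in DH and 0.12 ± 0.0363 in VH (edgeR adjusted p = 0.000153 and 0.0254). Serpine2, a secreted protease inhibitor gene on the other side, was lower in VH, at -0.10 ± 0.0251 (edgeR adjusted p = 0.0113).

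Entpd4 was listed at almost no reads in the gene table. The median library had a count of 0 under both labels and the highest level was 0.241 CPM. Entpd4b held 1 to 156 counts per library under 6NJ and 0 to 58 under 6J, and in DH, where it passed the low-count filter, it did not pass the test (1.22 ± 0.669, edgeR adjusted p = 0.233). The transcript table, which shares reads among identical sequences, held 3688 to 5719 estimated counts per library under 6NJ and 1882 to 3570 under 6J for the transcripts of both models together. That sum is used below as the level of Entpd4 and Entpd4b, a choice made after the values had been seen.

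The sum was 101, 118 and 129 CPM (lowest, median and highest library) in DH under 6NJ, against 52.3, 59.2 and 65.6 CPM under 6J. In VH it was 110.2, 122 and 133 CPM under 6NJ, against 59.2, 61.8 and 67.9 CPM under 6J. All 36 libraries labelled 6NJ lay above every library labelled 6J. The level was 1.99 times as high under 6NJ in DH, a log2 fold change of 0.99 ± 0.0266 (edgeR adjusted p = 3.89e-26). In VH it was 1.93 times as high, at 0.95 ± 0.0197 (edgeR adjusted p = 3.70e-30). By condition the difference was 1.02 ± 0.0461 in the home cage, 0.96 ± 0.0461 after the cue and 0.996 ± 0.0461 after shock and cue in DH. In VH it was 0.97 ± 0.0341, 0.94 ± 0.0341 and 0.94 ± 0.0341 in the same order. All 6 passed the test (edgeR adjusted p of at most 1.08e-17).

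The 12 group means of this sum were again ordered by label. In DH, groups labelled 6NJ averaged 122 ± 4.41 CPM in the home cage, 113 ± 5.59 CPM after the cue and 116 ± 8.83 CPM after shock and cue, against 60.2 ± 3.32, 58.3 ± 3.12 and 58.0 ± 2.84 CPM under 6J (SD, n = 6 each). In VH the 6NJ means were 126 ± 4.55, 118 ± 4.61 and 119 ± 5.02 CPM in that order, against 64.3 ± 3.52, 61.4 ± 0.971 and 62.1 ± 1.56 CPM under 6J. Within each label and region the home cage had the highest of the 3 means.

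Transcripts of both models moved the same way. Of 6 Entpd4 transcripts in the table, 5 were tested, and 5 were higher in DH and 4 in VH. Of 5 Entpd4b transcripts, 4 were tested and 4 were higher in each region. Each of these 4 has the same letters as an Entpd4 transcript, and such a pair has a single value. Across all transcripts tested, 1.97% were higher under 6NJ in DH and 1.25% in VH. The coding pair Entpd4-206 and Entpd4b-204, of 3589 bases with a coding length of 1839, had 1.02 ± 0.0408 in DH and 0.92 ± 0.0430 in VH (edgeR adjusted p = 9.05e-19 and 7.91e-17). Retained-intron forms rose too: the pair Entpd4-204 and Entpd4b-203 had 0.90 ± 0.0840 in DH and 0.90 ± 0.0560 in VH (edgeR adjusted p = 5.38e-09 and 1.44e-13). The second coding pair, Entpd4-205 and Entpd4b-201, had 1.15 ± 0.241 in DH and 0.89 ± 0.191 in VH (edgeR adjusted p = 0.00462 and 0.00653). Entpd4-201, which has no identical partner, had 0.93 ± 0.184 in DH and passed the test, and 1.61 ± 0.592 in VH, where it did not (edgeR adjusted p = 0.00255 and 0.186).

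**Figure D2:**
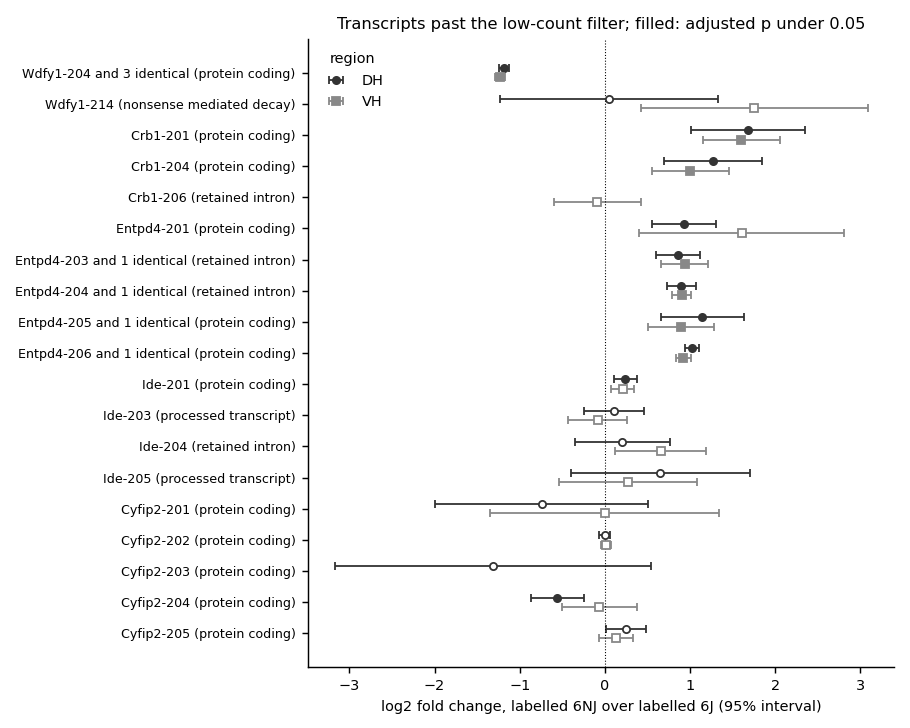
Log2 fold change (6NJ over 6J) with its 95% interval of the tested transcripts of each member in DH and VH. Coding transcripts of Wdfy1 lie near -1.2, those of Entpd4 and Entpd4b near 1, Cyfip2-202 near 0, Ide-201 at 0.24 in DH and 0.21 in VH, and Cyfip2-204 at -0.56 in DH and -0.07 in VH.

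Of 7 further genes of the Entpd nucleotidase family in the table, 6 were tested. In DH and in VH 0 of them passed in either direction by edgeR, beside 14.7% and 9.92% of all genes. Their median log2 fold changes were -0.08 and -0.10. Entpd5, an enzyme of the endoplasmic reticulum, had 39.5 CPM under 6NJ and 39.7 CPM under 6J in DH. Beside the Entpd4 models, Stc1, a secreted glycoprotein gene, was lower under 6NJ, at -0.36 ± 0.0562 in DH and -0.28 ± 0.0671 in VH on the log2 scale (edgeR adjusted p = 1.92e-05 and 0.00518). Slc25a37, a mitochondrial iron carrier, was lower, at -0.14 ± 0.0305 in DH and -0.12 ± 0.0318 in VH (edgeR adjusted p = 0.00122 and 0.0137). No other gene among the 3 tested on each side passed the test.

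Crb1 (ENSMUSG00000063681, chromosome 1 from 139197056 to 139377100, minus strand) was a low-count gene in both regions, with 14 to 79 counts per library under 6NJ and 6 to 53 under 6J. In DH it had 0.346, 1.03 and 1.59 CPM under 6NJ (lowest, median and highest library), against 0.175, 0.372 and 0.610 CPM under 6J. In VH it had 1.12, 1.61 and 2.09 CPM under 6NJ, against 0.370, 0.617 and 1.002 CPM under 6J. In DH 16 of 18 libraries labelled 6NJ lay above every library labelled 6J, and in VH 18 of 18 did. Crb1 was 2.51 times as high under 6NJ in DH (1.33 ± 0.136 on the log2 scale, 95% interval 1.05 to 1.60, edgeR adjusted p = 4.22e-09) and 2.40 times as high in VH (1.26 ± 0.115, interval 1.03 to 1.50, edgeR adjusted p = 2.53e-10).

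By condition, the Crb1 difference in DH was 0.92 ± 0.235 in the home cage, 1.89 ± 0.231 after the cue and 1.17 ± 0.239 after shock and cue. In VH it was 1.08 ± 0.198, 1.43 ± 0.200 and 1.28 ± 0.199 in the same order. All 6 passed the test, with the home cage difference in DH nearest the threshold (edgeR adjusted p = 0.0429). That call ended under 4 alternatives, with adjusted p of 0.0539 (no low-count filter) to 0.174 (without the codes with Lcn2 above 2 CPM). The VH home cage call ended with only the 12 libraries compared (1.08, edgeR adjusted p = 0.0543). In each condition of DH, 0.931% (home cage), 2.72% (cue) and 2.14% (shock and cue) of all genes tested passed, and in VH 1.35%, 1.76% and 0.771%. By group, DH libraries labelled 6NJ had a median of 0.831 CPM in the home cage, 1.38 CPM after the cue and 0.835 CPM after shock and cue, against 0.409, 0.323 and 0.341 CPM under 6J. The cue group labelled 6NJ, at 1.13 to 1.59 CPM, lay above all 6NJ home cage and shock and cue libraries of DH, which reached 1.07 and 1.08 CPM. In VH the 6NJ medians were 1.50, 1.61 and 1.65 CPM in the order of conditions, against 0.707, 0.512 and 0.707 CPM under 6J.

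Both coding transcripts of Crb1 that were tested were higher under 6NJ. Crb1-201 had 1.68 ± 0.329 in DH and 1.60 ± 0.221 in VH (edgeR adjusted p = 0.00221 and 1.86e-05), and Crb1-204 had 1.27 ± 0.282 in DH and 0.9999 ± 0.222 in VH (edgeR adjusted p = 0.00788 and 0.00890). The retained-intron transcript Crb1-206, tested in VH, had -0.09 ± 0.250 (edgeR adjusted p = 0.951). Of the 7 transcripts in the table, 2 were tested in DH and 3 in VH.

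Of 15 partner genes of Crb1 in the Crumbs complex, 0 were higher and 1 was lower in each region, beside 14.7% of all genes passing in DH and 9.92% in VH, and the median log2 fold changes were -0.03 and -0.02. Patj, a scaffold that binds the complex at tight junctions, was lower in DH, at 5.43 ± 0.795 CPM under 6NJ and 6.82 ± 1.24 CPM under 6J (-0.33 ± 0.0757, edgeR adjusted p = 0.00289). Mpp4, a membrane-associated guanylate kinase gene, was lower in VH, at 8.88 ± 0.732 CPM under 6NJ and 9.72 ± 0.851 CPM under 6J (-0.13 ± 0.0383, edgeR adjusted p = 0.0233). The paralog Crb2 had 5.74 CPM under 6NJ and 6.77 CPM under 6J in DH (edgeR adjusted p = 0.267). Beside Crb1, Lhx9, a LIM homeobox transcription factor, was lower in DH, with 14.4 CPM under 6NJ and 18.02 CPM under 6J (-0.33 ± 0.0544, edgeR adjusted p = 6.23e-05), and did not pass in VH (-0.16, edgeR adjusted p = 0.0619). Dennd1b and Zbtb41 were lower there too, at -0.11 and -0.10, and did not pass in VH.

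**Figure D3:**
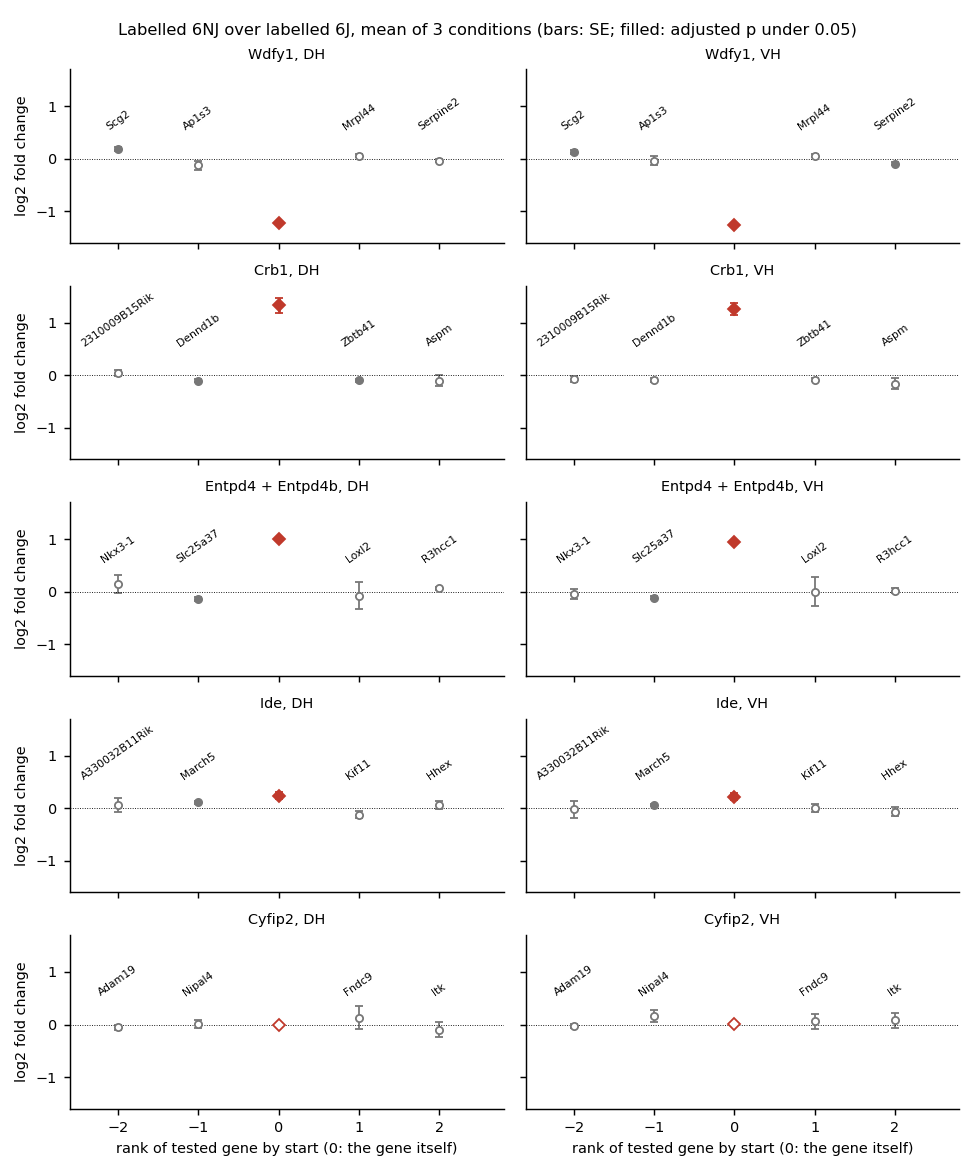
Log2 fold change (6NJ over 6J) of each member, at position 0, and of the 2 nearest tested genes on either side in gene order, by region, with bars for the SE and filled points where the edgeR test passed. The neighbours drawn lie between -0.16 and 0.19, while Wdfy1, Crb1 and the Entpd4 sum lie near or beyond -1 or 1. The third tested gene on each side is not drawn, and some of these lie outside that range, as given in the text for Stc1 and Lhx9.

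Of 30 genes beside the members tested in each region, 10 passed in DH and 5 in VH, where 14.7% and 9.92% of all genes passed. Their median log2 fold change was -0.02 in DH and -0.00 in VH. Beside Cyfip2, Med7, a Mediator subunit, was higher in DH by 0.11 ± 0.0279 (edgeR adjusted p = 0.00755).

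Ide (ENSMUSG00000056999, chromosome 19 from 37268743 to 37337852, minus strand) separated libraries labelled 6NJ from each other more than it separated the labels. In DH it had 46.9, 51.0 and 77.4 CPM under 6NJ (lowest, median and highest library), against 47.5, 49.6 and 54.6 CPM under 6J. In VH it had 45.7, 48.7 and 77.1 CPM under 6NJ, against 46.6, 49.3 and 52.0 CPM under 6J. The medians of the labels were close, and the spread differed: the SD over 18 libraries was 12.4 CPM under 6NJ and 1.78 CPM under 6J in DH, and 12.8 CPM under 6NJ and 1.55 CPM under 6J in VH. The log2 fold change was 0.23 ± 0.0652 in DH (95% interval 0.10 to 0.36, edgeR adjusted p = 0.0141) and 0.21 ± 0.0670 in VH (interval 0.08 to 0.35, edgeR adjusted p = 0.0376). Both calls ended without the 6 codes that had Lcn2 above 2 CPM, all labelled 6J (0.23 in DH and 0.22 in VH, edgeR adjusted p = 0.104 and 0.144), and that in VH also without the low-count filter.

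Levels of Ide under 6NJ fell on both sides of an empty range. In DH 7 of the 18 codes labelled 6NJ had 70.7 to 77.4 CPM and the other 11 had 46.9 to 52.3 CPM. The same 7 codes had 68.7 to 77.1 CPM in VH, and the same 11 had 45.7 to 49.8 CPM. A line at 60 CPM, drawn after the values had been seen, separates them in each region. No library labelled 6J crossed it. The 7 codes were 4 of 6 in the cue group, 2 of 6 in the shock and cue group and 1 of 6 in the home cage group. They came from 5 of the 6 code numbers labelled 6NJ. Their number differed between conditions, so it and a response of Ide to condition cannot be told apart in the medians and fold changes by condition. DH levels below the line were 49.9 to 51.1 CPM after the cue and 46.9 to 52.3 CPM in the home cage. After shock and cue they were 47.6 to 50.8 CPM. Above the line the DH levels were 73.1 to 75.6, 71.9 and 70.7 to 77.4 CPM in the same order. In VH the ranges below the line overlapped too. Above it the VH cue codes, at 72.3 to 77.1 CPM, exceeded the other high codes. A response to condition within each side was not tested.

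**Figure D4:**
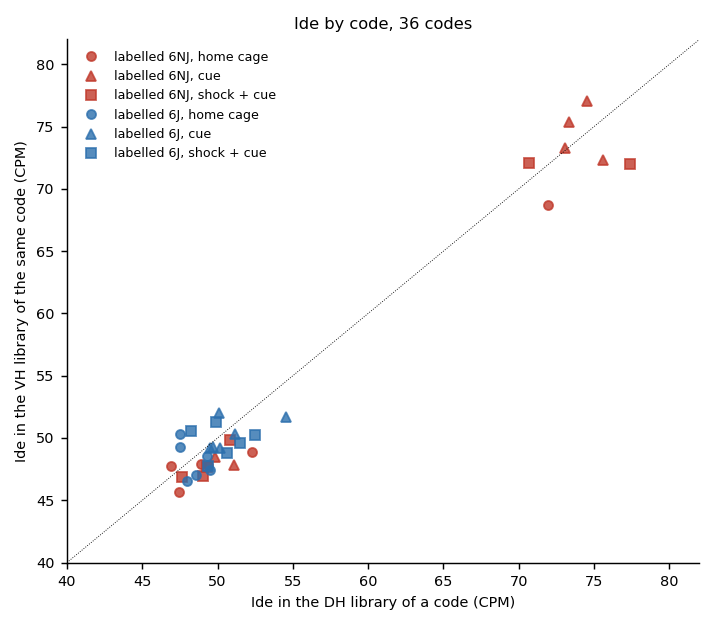
Ide in the DH library (horizontal axis, CPM) against Ide in the VH library (vertical axis, CPM) of the same code, for 18 codes labelled 6NJ, marked by condition, and 18 labelled 6J; both axes start above 0. The 7 codes labelled 6NJ with high values lie above 60 CPM in both regions and the other 11 lie with the codes labelled 6J.

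By condition, Ide gave 0.13 ± 0.113 in the home cage, 0.38 ± 0.113 after the cue and 0.19 ± 0.113 after shock and cue in DH. In VH it gave 0.09 ± 0.116, 0.39 ± 0.116 and 0.17 ± 0.116. None of the 6 passed by edgeR (lowest adjusted p = 0.0587), and both cue differences passed by DESeq2 (adjusted p = 0.0232 in DH and 0.0253 in VH). By group, DH medians under 6NJ were 49.1 CPM in the home cage, 73.2 CPM after the cue and 50.1 CPM after shock and cue, against 48.2, 50.1 and 50.3 CPM under 6J. In VH they were 47.9, 72.8 and 48.7 CPM under 6NJ, against 48.0, 49.8 and 49.9 CPM under 6J. Only the cue groups labelled 6NJ had a median outside the range of the libraries labelled 6J.

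The main coding transcript, Ide-201, gave 0.24 ± 0.0665 in DH and 0.21 ± 0.0668 in VH (edgeR adjusted p = 0.0395 and 0.105). The other 3 Ide transcripts tested did not pass in either region. Of the 6 genes tested beside Ide, 2 passed in DH and 1 in VH, where 14.7% and 9.92% of all genes passed. Those that passed were higher under 6NJ. March5, a mitochondrial ubiquitin ligase gene, was higher by 0.11 ± 0.0200 in DH and 0.06 ± 0.0184 in VH (edgeR adjusted p = 0.000335 and 0.0316). Exoc6, an exocyst subunit gene, was higher in DH by 0.11 ± 0.0260 (edgeR adjusted p = 0.00344). Fgfbp3, which encodes a secreted fibroblast growth factor binding protein and lies at 36917550 to 36919615, 349127 bases from Ide, was higher in DH, at 6.29 ± 0.934 CPM under 6NJ and 5.10 ± 0.683 CPM under 6J (0.31 ± 0.0626, edgeR adjusted p = 0.000817). In VH Fgfbp3 did not pass (0.18 ± 0.0696, edgeR adjusted p = 0.0908).

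Of 13 peptidases and substrate genes tested, 0 were higher and 3 were lower in DH, and 0 were higher and 1 was lower in VH, beside 14.7% of all genes passing in DH and 9.92% in VH, with median log2 fold changes of -0.02 and 0.02. Mme, which encodes neprilysin, another peptidase that degrades amyloid beta, was lower in both regions. It had 5.68 ± 1.08 CPM under 6NJ and 7.19 ± 0.972 CPM under 6J in DH, and 6.24 ± 1.02 CPM under 6NJ and 7.60 ± 0.731 CPM under 6J in VH (-0.34 ± 0.0784 and -0.29 ± 0.0623, edgeR adjusted p = 0.00285 and 0.00215). The insulin-like growth factor receptor Igf1r was lower in DH, at -0.12 ± 0.0361 (edgeR adjusted p = 0.0225), and the mitochondrial peptidase Pitrm1, at -0.06 ± 0.0195 (edgeR adjusted p = 0.0254). Insr, the insulin receptor, had 61.3 CPM under 6NJ and 62.3 CPM under 6J in DH (edgeR adjusted p = 0.595).

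Cyfip2 (ENSMUSG00000020340, chromosome 11 from 46193850 to 46312859, minus strand) had close levels under both labels. In DH it had 748, 898 and 947 CPM under 6NJ (lowest, median and highest library), against 779, 888 and 985 CPM under 6J. In VH it had 678, 794 and 892 CPM under 6NJ, against 689, 785 and 869 CPM under 6J. The groups overlapped in both regions. The log2 fold change was -0.02 ± 0.0305 in DH (95% interval -0.08 to 0.05, edgeR adjusted p = 0.784) and 0.01 ± 0.0311 in VH (interval -0.05 to 0.08, edgeR adjusted p = 0.840). In the 6 comparisons by condition it lay between -0.06 and 0.02 and did not pass. Fndc9, a gene on the opposite strand inside Cyfip2, gave 0.13 in DH and 0.06 in VH (edgeR adjusted p = 0.737 and 0.842), and reads in its exons cannot be assigned with certainty.

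The coding transcript Cyfip2-202 gave -0.00 ± 0.0303 in DH and 0.01 ± 0.0292 in VH. A minor coding form, Cyfip2-204, was the only Cyfip2 transcript past the test, in DH alone, out of 5 tested there and 4 in VH. It had 1.51, 2.69 and 4.31 CPM in DH under 6NJ (lowest, median and highest library), against 1.97, 3.77 and 7.64 CPM under 6J. The ranges overlapped, and the log2 fold change was -0.56 ± 0.151 (edgeR adjusted p = 0.0349). In VH it gave -0.07 ± 0.216 (edgeR adjusted p = 0.959), and the difference between regions was not tested for transcripts.

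Of 14 partners of Cyfip2 in actin and translation control tested, 2 were higher and 1 was lower in DH, and 1 was higher in VH, beside 14.7% and 9.92% of all genes passing, with median log2 fold changes of 0.01 and 0.00. Rac1, the small GTPase that activates the WAVE complex, was higher in both regions. It had 324 ± 14.6 CPM under 6NJ and 297 ± 12.1 CPM under 6J in DH, and 311 ± 18.9 CPM under 6NJ and 287 ± 14.7 CPM under 6J in VH (0.13 ± 0.0221 and 0.11 ± 0.0258, edgeR adjusted p = 0.000104 and 0.00279). Eif4e, the cap-binding protein that Cyfip proteins bind, was higher in DH by 0.06 ± 0.0189 (edgeR adjusted p = 0.0213), and the WAVE subunit gene Wasf2 was lower, at -0.09 ± 0.0288 (edgeR adjusted p = 0.0275). The paralog Cyfip1 had 130.2 CPM under 6NJ and 129 CPM under 6J in DH (edgeR adjusted p = 0.843).

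**Figure D5:**
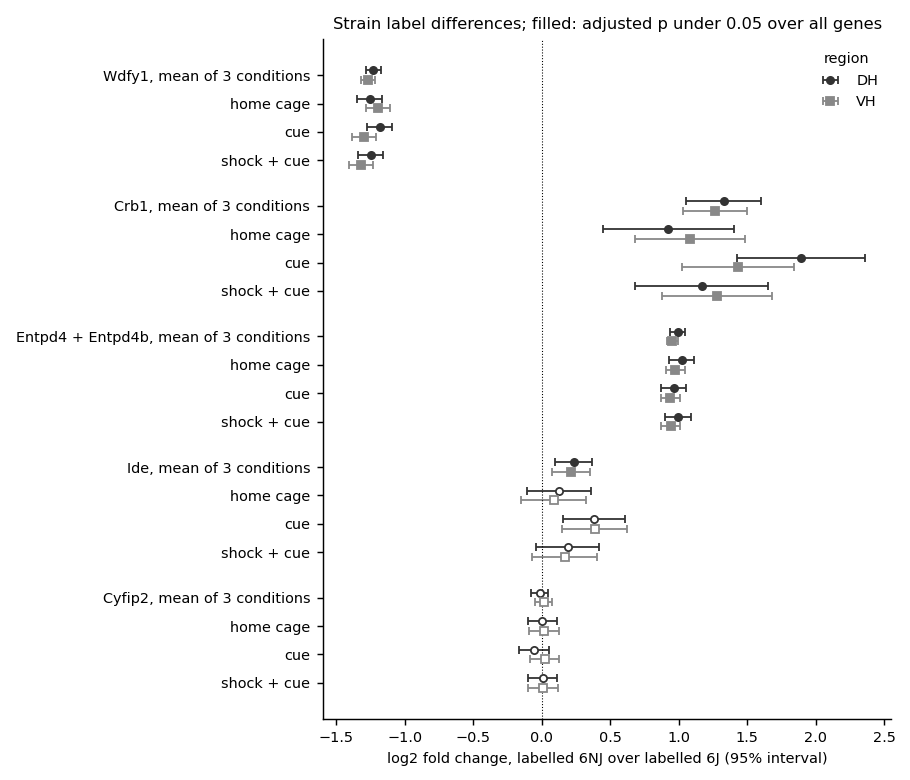
Log2 fold change (6NJ over 6J) with its 95% interval for each member in DH and VH, as the mean of the 3 conditions and in each condition. Wdfy1 lies between -1.32 and -1.18, the Entpd4 sum between 0.94 and 1.02, Crb1 between 0.92 and 1.89, Ide between 0.09 and 0.39, and Cyfip2 at or near 0.

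Responses to cue and shock were then compared within each label. These comparisons share their home cage or cue libraries with each other. Over the members, Entpd4b and the Entpd4 sum, 2 of 66 responses passed by edgeR, 11 had an unadjusted p under 0.05, and 2 of 48 passed by DESeq2. Under 6NJ in VH, Ide was higher after the cue than in the home cage by 0.36 ± 0.116 (edgeR adjusted p = 0.0371), where the cue group held 4 of the codes above 60 CPM and the home cage group 1. The Entpd4 sum was lower there, at -0.10 ± 0.0335 (edgeR adjusted p = 0.0374). Across all genes, 12.9% passed in that comparison under 6NJ and 12.8% under 6J, and in DH 2.36% under 6NJ and 5.89% under 6J. From the home cage to shock and cue, 3.57% of genes passed in DH and 8.65% in VH under 6NJ, against 1.76% in DH and 3.11% in VH under 6J. Between shock and cue and the cue alone, 0.00% passed in either label or region.

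No response of a member differed between labels past the test. Of 33 interactions, 0 passed by edgeR, 3 had an unadjusted p under 0.05, and 0 of 24 passed by DESeq2, and over all genes 0.00% passed. The interactions of Crb1 ranged from -0.73 to 0.97, and those of the sparse Entpd4b, tested in DH alone, from 0.15 to 2.93. In DH the response of Crb1 to the cue, compared with the home cage, was 0.72 ± 0.209 under 6NJ (edgeR adjusted p = 0.0553). The difference of that Crb1 response between labels was 0.97 ± 0.333 with an unadjusted p of 0.00617 (edgeR adjusted p = 0.99996). By DESeq2 this response of Crb1 under 6NJ passed (adjusted p = 0.0296).

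Between regions, Crb1 had a lower level in DH. DH over VH, averaged over all groups, its log2 fold change was -0.74 ± 0.0896, which is 0.600 of the VH level (edgeR adjusted p = 5.47e-11). By label this was -0.71 ± 0.114 under 6NJ and -0.77 ± 0.139 under 6J. Cyfip2 was higher in DH by 0.18 ± 0.0218 (edgeR adjusted p = 6.37e-11), the Entpd4 sum lower, at -0.08 ± 0.0164 (edgeR adjusted p = 4.94e-05) and Wdfy1 lower, at -0.06 ± 0.0177 (edgeR adjusted p = 0.00190). Ide gave 0.03 ± 0.0475 and did not pass (edgeR adjusted p = 0.652). This fit did not pair the libraries of a code, and with the code as a block Ide passed (0.0266 ± 0.0108, edgeR adjusted p = 0.0300). The sparse Entpd4b of the gene table was higher in DH by 1.12 ± 0.438 (edgeR adjusted p = 0.0221). Across all genes, 63.6% differed between regions, 32.7% higher and 30.9% lower in DH. For 6 rows tested (the members, Entpd4b and the Entpd4 sum), 0 differences between labels depended on region by edgeR, 0 had an unadjusted p under 0.05, and 0 of 4 passed by DESeq2. Of all genes 0.00494% did.

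Genes with the most similar pattern over the 72 libraries were named for each member by Pearson's r of log2 CPM. The libraries share 36 codes, 2 labels and 2 regions, so these values are descriptions. The best matches of Wdfy1 were both Nnt models (r = 0.976 each) and Tmem181b-ps (0.962). Those of the Entpd4 sum were mt-Tg (0.981), a mitochondrial transfer RNA, a gene model without a symbol (0.970) and mt-Nd3 (0.942), which encodes a subunit of respiratory complex I. Both sets follow the label. Those of Crb1 were Cort (0.825), Bex1 (0.821) and Crhbp (0.781), and those of Cyfip2 were Sort1 (0.908), Slc24a2 (0.907) and Scn8a (0.906). Ide was most like Btaf1 (0.678), which encodes a TATA-box regulator, then Fgfbp3 (0.627) and Bzw1 (0.536).

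After each library's group mean was subtracted, Ide still had Fgfbp3 (0.632) and Btaf1 (0.608) as its best matches, followed by Mme (0.463). Btaf1 lies on chromosome 19 at 36926079 to 37012752, 255990 bases from Ide. Its own difference between labels was 0.12 in DH and 0.13 in VH and did not pass (edgeR adjusted p = 0.141 and 0.0785). Other best matches within groups were Plcb1 for Cyfip2 (0.847), Sv2a for the Entpd4 sum (0.796) and Fam227a for Wdfy1 (0.674).

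The DH and the VH library of a code were also compared, in 11 relations with p-values from 100000 permutations. Log2 CPM was taken as deviations from group means, except for Ide under 6NJ. One passed after adjustment over the 11: Cyfip2 under 6J, by Spearman's rho of 0.657 (permutation p = 0.00358, adjusted p = 0.0394) and not by Pearson's r of 0.570 (permutation p = 0.0132, adjusted p = 0.0748), with n = 18 codes. Without the 2 codes farthest from the median in DH, r was 0.527. For Ide under 6NJ no pooled value is given because the codes fall into separate clusters. Within them log2 CPM was compared across conditions without subtracting group means. There r was 0.221 over the 7 codes above 60 CPM and 0.695 over the 11 codes below it. Spearman's rho was 0.250 and 0.609, and none passed by permutation (adjusted p = 0.645 and 0.0748 for r).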

How the data were processed

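Gene counts, deposited by the authors as whole numbers and not normalized, were made with HISAT2 and featureCounts on GRCm38, and estimated counts of transcripts with kallisto, per the submitters' processing notes, which also name FastQC and DESeq2. For these, the version, strand setting and treatment of reads with several matches were not given in the sources used here. Per the labels' protocols, libraries were stranded mRNA libraries from column-purified Trizol RNA, read as single ends of 75 bases.

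Every sample column matched a sample by name. The test of counts was that of edgeR 4.0.16 under R 4.3.3 (TMM, filterByExpr with a minimum count of 10, robust quasi-likelihood fit, 1 mean per group, no covariate) on the 36 libraries of a region or on all 72 for regions, and p-values were adjusted by Benjamini-Hochberg over all genes or transcripts tested, with a threshold of 0.05. Estimated counts were rounded to whole numbers first. This tested 19647 genes in DH, 19597 in VH and 20255 in both, and 56523 and 55754 transcripts in DH and VH. CPM is relative to the TMM-scaled library total, with a prior count of 2 before logs. A standard error is the log2 fold change over the square root of F. Annotation and transcript sequences came from GENCODE vM21 on GRCm38. The fits were tested on simulated data.

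Genes named were the members, Entpd4b, their transcripts, the partner genes past the test with the closest paralogs, neighbours past the test, and the 3 genes most alike; some of these are not reported here. The members and lists were chosen with earlier results of these data known. As alternatives, size factors by RLE, a fit with no low-count filter and one keeping a mean CPM of at least 1 were tried, and DESeq2 1.42.0, limma-voom 3.58.1 with a random effect of code number, only the 12 libraries compared, kallisto counts per gene, gene models of a symbol summed, leaving out codes with Lcn2 above 2 CPM, and the code as a block between regions. Summing Entpd4 and Entpd4b was added after the data were seen. Intervals and counts cover the spread between libraries only.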

Additional observations from a re-analysis of the deposited data

Results flagged for a closer look

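Of 72 groups of 6 libraries examined for a library far from the other 5, 10 held one by Dixon's test, and chance gives about 1 in 20 groups. Under 6NJ, the highest home cage library of Ide had 71.9 CPM in DH and 68.7 CPM in VH, while under 6J the highest cue library had 54.6 CPM in DH. Wdfy1 had its lowest home cage library in DH under 6NJ, at 17.8 CPM. For the sum of Entpd4 and Entpd4b, the lowest cue library in DH under 6J had 52.3 CPM. Entpd4b in the gene table had a high library of 3.29 CPM (home cage), 0.627 CPM (cue) and 3.50 CPM (shock and cue) in DH under 6NJ, of 2.25 CPM in the VH home cage group under 6NJ, and of 0.960 CPM in the DH cue group under 6J.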

How the results depend on the processing

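Each comparison between labels, by region and condition, was set against the alternatives run for it. Wdfy1 kept its direction and call in all 52 such pairs of comparison and alternative (-1.32 to -1.10 on the log2 scale, 6NJ over 6J). Crb1 kept them in 46 of 51 pairs (0.68 to 1.90) and Ide in 47 of 52 (0.08 to 0.40). The causes of the following changes were not tested. For Crb1 in the DH home cage, the call was lost with no low-count filter (0.93, adjusted p = 0.0539), without the codes with Lcn2 above 2 CPM (0.77, 0.174), with kallisto counts per gene (0.68, 0.0604) and with only the 12 libraries compared (0.92, 0.0662), and in the VH home cage with only those 12 (1.08, 0.0543). For Ide, the call over the mean of conditions was lost without the Lcn2 codes in DH (0.23, 0.104) and VH (0.22, 0.144) and with no filter in VH (0.22, 0.0774), and the cue difference passed by DESeq2 in DH (0.38, 0.0232) and VH (0.39, 0.0253). With gene models of one symbol summed, Entpd4 missed the test in DH (1.22, 0.221). DESeq2 called 1 of the peptidases and substrates higher in DH. Without the Lcn2 codes the sign turned for Cyfip2 between labels in DH (0.0108), for its interactions of shock and cue with the home cage in DH (-0.0535) and of the cue with the home cage in VH (-0.0142), for its 6J response to shock and cue in VH (0.0431), and for Crb1 between shock and cue and cue in VH (interaction 0.10, 6J response -0.0943). It also turned for Cyfip2-201 in the VH home cage by DESeq2 (0.0079) and for Cyfip2-205 after the cue in VH with no filter (-0.0013). None of these passed.

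The libraries of a code were not treated as paired in the main fits, since the labels do not say that a code is a mouse. Deviations of the DH and VH library of a code correlated at -0.189 to 0.341 over genes (median 0.0945), and 7 of 36 correlated best with their own code. For Ide under 6NJ, the same 7 codes were above 60 CPM in both regions. Whether the libraries of a code share a mouse was not tested. With the code as a replicate block, Ide passed between regions over all groups (0.0266, adjusted p = 0.0300) and under 6NJ (0.0359, 0.0449), and the other 14 results were unaffected in direction and call. Strain labels cannot be blocked, since each code has 1 label. Low counts limit Crb1, the short Wdfy1 transcripts and Entpd4b.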
